A study of Mus musculus with 8 samples.

Results

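The Hox transcription factor genes of all 4 clusters, apart from Hoxc13, were examined in mouse skin together with Zic1, Tbx15, Tbx18, En1, Tbx5, Tbx4 and Pitx1, transcription factor genes that mark parts of the body. Members were taken by gene symbol alone, after the RefSeq accession of each probe had been matched to a symbol. This gave 47 genes with 52 probes, of 20128 genes with 26546 named probes on the array. The noncoding RNAs of the Hox clusters, Hoxa11os and Hoxd3os1, were among them. The samples were total skin RNA of C57BL/6N mice, 1 single-colour Agilent array each. They comprised 2 arrays of hair loss skin and 4 of normal skin from Cchcr1 mutants, and 2 of normal skin from the wild type. The mutants carried an allele-specific CRISPR/Cas9 edit of Cchcr1, a coiled-coil protein gene, and were studied as a model of patchy hair loss. Each sample title has a number (Mutant097, Mutant113 or Wild001) and then a letter. Each mutant number had 1 hair loss array (letter S) and 2 normal skin arrays (letters A and B), and both wild type arrays (A and B) were Wild001. Whether numbers stand for animals and letters for body sites is not stated in the labels, which give no age, sex or body site. The p-values therefore measure the spread between these samples, which may be technical. Letter S and hair loss are the same arrays, so these cannot be told apart, and neither can genotype and title number in comparisons with wild type.

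Hox genes lie in 4 clusters in an order that matches where along the body axis they are switched on, from anterior (low paralog numbers) to posterior (high numbers). Adult dermal fibroblasts keep a Hox pattern that records the body region they come from. Zic1, a zinc finger factor, marks dorsal neural tube and dorsal somite derivatives. Tbx15 and Tbx18 are T-box factors, of which Tbx15 shapes dorsal trunk skin and its pigment. Tbx5 marks the forelimb field, Tbx4 and Pitx1 mark the hindlimb field, and En1 marks ventral ectoderm of the limb.

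Promoter sequences are shown for 3 members that separated the letters A and B and that the RefSeq promoter table held. The table matched 28 of the 47 members, with 30 start sites. Each window is the 250 bases before the annotated start, on the strand of the gene, in mouse assembly GRCm38.p6. They lie at chr9:91365769-91366018 on the minus strand for Zic1, at chr11:85896515-85896764 on the plus strand for Tbx4, and at chr11:96281655-96281904 on the plus strand for Hoxb8. Capitals mark matches, on either strand, to a TATA box (TATAAA), to the CCAAT box that its name spells, to a paired Hox and Pbx site (TGATNNAT) or to a homeodomain site (TAATTA). No 2 matches overlapped in these 3 windows.
Zic1: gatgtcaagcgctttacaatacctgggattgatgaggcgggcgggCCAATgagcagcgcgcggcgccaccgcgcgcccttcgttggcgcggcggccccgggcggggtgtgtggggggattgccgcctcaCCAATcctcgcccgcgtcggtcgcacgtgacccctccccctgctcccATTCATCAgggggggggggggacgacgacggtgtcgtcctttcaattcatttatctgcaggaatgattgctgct
Tbx4: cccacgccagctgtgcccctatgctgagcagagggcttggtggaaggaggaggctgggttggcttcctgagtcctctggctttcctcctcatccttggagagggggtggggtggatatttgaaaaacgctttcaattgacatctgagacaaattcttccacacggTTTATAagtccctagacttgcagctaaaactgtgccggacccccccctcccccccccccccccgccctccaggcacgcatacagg
Hoxb8: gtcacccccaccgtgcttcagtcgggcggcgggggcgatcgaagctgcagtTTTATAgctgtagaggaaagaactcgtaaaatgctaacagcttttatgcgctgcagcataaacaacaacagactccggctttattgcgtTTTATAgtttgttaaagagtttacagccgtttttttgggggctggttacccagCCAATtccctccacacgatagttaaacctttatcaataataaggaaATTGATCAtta
Zic1 held 2 CCAAT boxes and 1 Hox and Pbx site, Tbx4 held 1 TATA box, and Hoxb8 held 2 TATA boxes, 1 CCAAT box and 1 Hox and Pbx site. Across 32851 promoter windows of this length, 12.4% held a TATA box, 33.8% a CCAAT box, 7.68% a Hox and Pbx site and 4.84% a homeodomain site. Among the 30 member windows these were present in 6, 17, 5 and 2. A match describes letters only and is not a binding site.

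Values are log2 of the processed intensity minus the 75th percentile of the array, so 0 is that percentile, and "well above background" is the mark the scanner software gives a spot. The 75th percentile of the intensity ran from 83.2 to 211.6, and 25409 to 30196 probes per array were well above background. Below background a value is only a bound, and it moves with the brightness of the array. Dermal fibroblast markers were well above background on all 8 arrays for 8 of 8 genes on the array, as were 6 of 6 epidermal and 10 of 10 skeletal muscle markers. Cchcr1 ranged from -0.07 to 0.49 over the 8 arrays. Whether its probe lies in the edited part was not tested. Xist was well above background on the 3 Mutant113 arrays and the Y-linked Ddx3y and Eif2s3y on the other 5, so the sex of the RNA follows the title number.

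Most central Hox genes were well above background on all arrays, and 7 of 15 posterior members on none. Of the 47 genes, 23 were well above background on all 8 arrays and 10 on none. All 15 central genes (paralog groups 4 to 8) were tested, of which 13 were well above background on every array. Of 15 posterior genes (groups 9 to 13), 7 were tested and 7 were detected on no array, namely Hoxa11, Hoxa13, Hoxb13, Hoxc12, Hoxd11, Hoxd12 and Hoxd13. Hoxc13, a posterior gene known for its role in hair keratin expression and left out of the members by their rule, was well above background on all 8 arrays, at -1.20 to 3.37. Hoxc11 was detected only on the Mutant097 B array, at -3.00. The other genes detected on no array were Hoxb1, Hoxd1 and En1. All 8 HoxB genes from Hoxb2 to Hoxb9 were detected everywhere.

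The number of members detected differed between arrays. On the B arrays 34, 31 and 31 genes were well above background (Mutant097, Mutant113 and Wild001), on the A arrays 33, 35 and 35, and on the S arrays 26 (Mutant097) and 30 (Mutant113). The 2 hair loss arrays thus had the fewest. Over all probes, the Mutant097 S array also had the fewest well above background of the 8 arrays (25409, against 25502 on Wild001 B with 31 members), whereas the Mutant113 S array had the most (30196). Hoxa10, Hoxc10, Hoxa11os, Tbx4 and Tbx5 were well above background on neither of them. The 39 member probes that were well above background on at least 2 arrays, from 36 genes, were tested within 30409 probes. This filter keeps genes that are on in some samples, so counts over the 39 probes do not describe all 47 genes. Hoxa10, Hoxc10, Hoxa11os, Tbx4, Tbx5 and the second Hoxa9 probe passed the filter only through normal skin, which favours a lower value in hair loss.

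**Figure D1:**
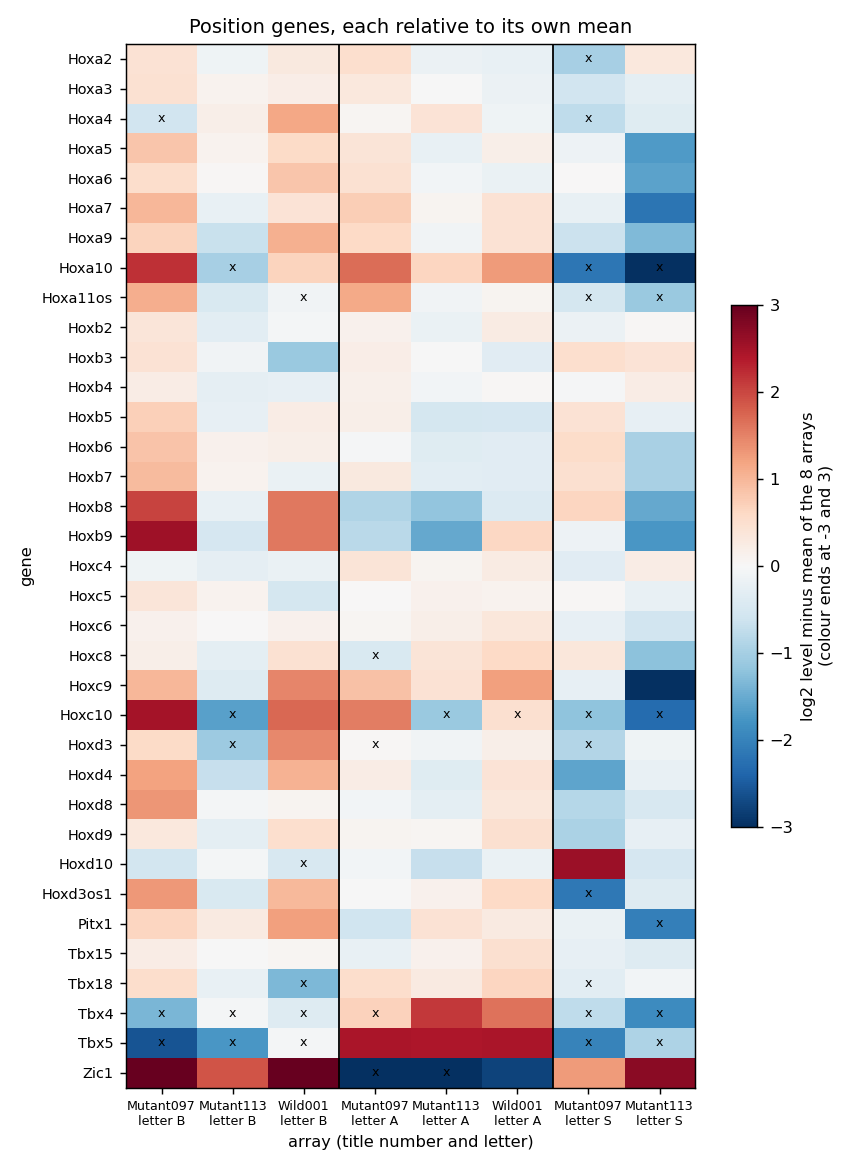
Heat map of the tested genes reported by name (rows) on the 8 arrays (columns, ordered by title letter B, A and S), where colour is the log2 level minus the mean of the gene over the arrays and x marks a value not well above background. Zic1 is high on B and S and low on A, Tbx5 is high on A only, and Hoxa10 is at background in both S columns.

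Letters A and B of normal skin differed most in Zic1 among all probes tested. Zic1 stood at 2.51, 1.33 and 2.70 on the B arrays of Mutant097, Mutant113 and Wild001, and at -4.21, -6.28 and -3.32 on their A arrays, of which only that of Wild001 was well above background. The groups did not overlap, and every title number showed the same direction, with A minus B at -6.72, -7.61 and -6.01. This difference of -6.78 (SE 0.34) ranked 1 of 30409 probes both by size and by p, but limma's adjusted p was 0.310. Without either Mutant113 normal skin array, which removes the pair, it was -6.37 with limma's adjusted p at 0.0234. With normexp background correction it was -3.42 and passed the threshold. The other Zic1 probe was dim, between -3.24 and -1.69, with a difference of -0.63 (SE 0.25), so the pattern rests on 1 probe.

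Tbx5 ran the other way. It stood at -0.77, -0.79 and -0.76 on the A arrays of Mutant097, Mutant113 and Wild001, and at -5.80, -4.96 and -3.28 on the B arrays, where it was not well above background. All 3 A arrays were nearly level and above all B arrays. The A arrays were at least 7.60-fold higher, on a fitted difference of 3.91 (SE 0.51), which ranked 3 by size (limma, adjusted p = 0.642). Tbx4, the hindlimb factor, stood at -3.90, -2.47 and -2.98 on the A arrays and at -5.96, -4.66 and -4.99 on the B arrays. Only the A arrays of Mutant113 and Wild001 were well above background. Its difference was 2.09 (SE 0.15) and ranked 5 by p (limma, adjusted p = 0.327). With 1 of the 3 A arrays at background, no bound on the fold is given.

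Of the HoxB genes, Hoxb5 to Hoxb9 were lower on A than on B in every title number, and 0 of them passed the threshold. Hoxb8 stood at 1.14, -1.12 and 0.70 on the B arrays and at -1.80, -2.08 and -1.30 on the A arrays, without overlap, and A minus B was -1.97 (SE 0.40; limma, adjusted p = 0.783). Hoxb9, its cluster neighbour, stood at 1.15, -1.89 and 0.20 on B and at -2.21, -2.93 and -0.77 on A. There the letters overlapped, although A was lower in every number, with a difference of -1.79 (SE 0.54). Hoxb5, Hoxb6 and Hoxb7 had differences of -0.52, -0.63 and -0.40. The lower numbered Hoxb2, Hoxb3 and Hoxb4 had both signs across the title numbers, with 0.22 for Hoxb3 and -0.44 for its other probe. Hoxc4 was slightly higher on A in every number, by 0.43 (SE 0.15).

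Tbx15, Tbx18, Pitx1 and Hoxa10 had overlapping letters. Tbx15 was well above background everywhere, at 1.74, 1.50 and 1.58 on B and at 1.28, 1.64 and 2.00 on A, a difference of 0.03 (95% interval -0.56 to 0.62). Tbx18 differed by 0.83 (SE 0.42) and Pitx1 by -0.68 (SE 0.32). Hoxa10 differed by 0.58, with both signs across the title numbers.

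In A minus B, 0 of 39 member probes passed the threshold (adjusted p under 0.05) and 0% of all 30409 probes did. At an unadjusted p under 0.05 there were 8 member probes, 5 lower and 3 higher, which is 20.5% against 5.01% of all probes. A lay below B in all 3 numbers for 10 member probes (25.6%, against 10.6% of all probes) and above B for 5 (12.8%, against 12.1%). Both counts of higher probes include Tbx5 and Tbx4. These passed the filter only through A arrays, which favours a higher value on A. With normexp background correction on the median signal, limma called 3 members, Zic1, Tbx5 and Hoxb8. Markers of several cell types differed between the letters too. Those of hair matrix and inner root sheath were lower on A. Of 9 tested, 9 were lower, 7 of them at an unadjusted p under 0.05, with list means per array of -0.98 to 4.91 on B and -2.12 to 4.06 on A. Hair shaft markers were lower on A for 8 of 8 genes, 1 at an unadjusted p under 0.05 (median -0.56), and fat cell markers for 6 of 6, 0 at that level (median -0.25). Leukocyte markers were higher on A for 4 of 6, 3 at an unadjusted p under 0.05 (median 0.38). The part of these cell types in the member values was not tested. The dermal fibroblast list had means of 4.60 to 5.98 on B and 4.77 to 5.72 on A, and 4 of its 8 genes were lower on A.

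**Figure D2:**
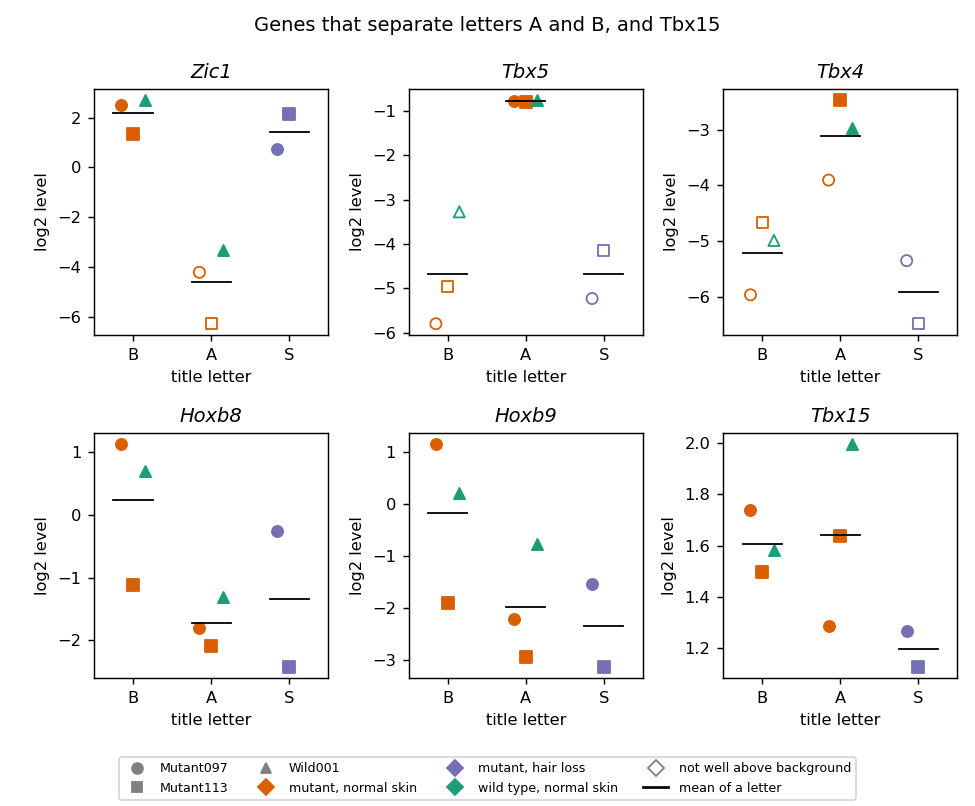
Log2 level of 6 members by title letter, 1 point per array, with shape for the title number, colour for the group, open points for values not well above background and a line at the mean of each letter. Zic1 is above 1 on every B array and below -3 on every A array, Tbx5 is at -0.79 to -0.76 on A and at background elsewhere, and Tbx15 overlaps between A and B.

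Hair loss skin (letter S) was set against each letter of normal skin. The fit held all 8 arrays, so the wild type A and B arrays also shape the fitted differences. Zic1 was well above background on both S arrays, at 0.72 (Mutant097) and 2.16 (Mutant113), which is in or near the range of the B arrays and above every A array. S was at least 37.9-fold higher than the mutant A arrays, on a fitted difference of 6.49 (SE 0.80), the largest of all probes (limma, adjusted p = 0.390). Against B the difference was -0.29 (SE 0.80). Tbx5 stood at -5.23 and -4.14 on S, not well above background, and was at least 7.73-fold lower than on A (fitted difference -3.56, SE 0.56; limma, adjusted p = 0.477). Tbx4 stood at -5.35 and -6.48 on S, with a fitted difference from A of -2.71 (SE 0.61; limma, adjusted p = 0.582). For these 3 genes the S arrays lay on the side of the B arrays. Intervals against B were wide, from -2.27 to 1.70 for Zic1, -1.06 to 1.75 for Tbx5 and -2.13 to 0.88 for Tbx4, so likeness to B is not shown by them.

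Hoxb8 and Hoxb9 did not follow that split. Hoxb8 stood at -0.25 on the Mutant097 S array, between its A and B arrays, and at -2.43 on the Mutant113 S array, below both. Hoxb9 stood at -1.55 and -3.13, again between A and B in Mutant097 and below both in Mutant113. S minus B was -1.36 (SE 0.48) for Hoxb8 and -1.76 (SE 0.58) for Hoxb9 (limma, adjusted p = 0.999 for both). Hoxc9 was lower on S than on either letter, by fitted differences of -2.88 (SE 0.81) from A and -2.72 (SE 0.81) from B. Hoxd10 was higher, by 1.36 and 1.40 (SE 0.76 for both), and 1 array set this (below). Other higher values on S were 0.61 for Hoxb8, 0.32 for Hoxb5 and 0.21 for Hoxb3 against A, and 0.43 for Hoxb3, 0.16 for Hoxb4 and 0.14 for Hoxc4 against B. The other Hoxb3 probe was at -0.16 against A and -0.60 against B. Pitx1 differed by -0.98 from A and -1.66 from B, Tbx15 by -0.36 and -0.33, and Tbx18 by -0.89 and -0.07. For Tbx18 the wild type arrays moved the fit. Its means on the mutant arrays alone were -3.60 on S, -2.99 on A and -3.24 on B. Hoxd3os1 differed from B by -1.69 (SE 0.72).

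Of the 39 member probes, 0 were called in S minus A and 0 in S minus B, as were 0% of all probes in both. At an unadjusted p under 0.05, S minus A had 12 member probes (11 lower and 1 higher, 30.8%), against 6.40% of all probes. S minus B had 14, all lower (35.9%), against 4.18% of all probes. These comparisons share the S arrays with the comparison of hair loss and normal skin. Both counts include probes that passed the filter only through normal skin, which favours a lower value on S. Hoxa10, Hoxa5, Hoxa7, Hoxa9, Hoxa11os, Hoxc9 and Hoxc10 were at an unadjusted p under 0.05 against both letters, with fitted differences of -3.89 and -3.31 for Hoxa10 and of -1.62 and -1.60 for Hoxa7 (against A and B).

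Members were mostly lower in hair loss skin than in normal skin of the mutants, and Hoxa10 had the largest fitted difference. Hoxa10 stood at -5.24 (Mutant097) and -6.34 (Mutant113) in hair loss, not well above background. In normal skin it stood at -0.87, -1.39, -4.07 and -2.43 (Mutant097 B and A, Mutant113 B and A), where the Mutant113 B array was not well above background either. The fitted difference was -3.60 (SE 0.82; limma, adjusted p = 0.713). The values did not overlap, but the Mutant113 B and both hair loss values are only bounds, so their order is not known. For the same reason no bound on the fold is given. Hoxc9 stood at 0.13 and -4.02 in hair loss and at 1.37, 1.25, -0.02 and 0.81 in normal skin. Its difference of -2.80 (SE 0.99; limma, adjusted p = 0.921) came mainly from the Mutant113 hair loss array, the lowest of all 8, and the groups overlapped.

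Hoxc10 stood at -5.27 and -6.37 in hair loss and at -1.56, -2.53, -5.70 and -5.17 in normal skin. It was well above background only on the normal skin of Mutant097 and on the wild type B array, and the groups overlapped through the Mutant113 values. Hoxa9 stood at -3.05 and -3.74 in hair loss and at -1.75, -1.80, -3.07 and -2.52 in normal skin, a difference of -1.11 (SE 0.42). Its second probe was not well above background in hair loss, at -4.34 and -6.56, and stood at -2.03 to -4.70 in mutant normal skin. Both Hoxa9 probes were thus lower in hair loss, with a small overlap in the Mutant113 B array.

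Among central genes, Hoxa7 stood at 2.59 and 0.63 in hair loss and at 3.82, 3.57, 2.59 and 2.89 in normal skin. Both hair loss values lay below all normal skin values, the higher of them only just, and the difference was -1.61 (SE 0.55; limma, adjusted p = 0.887). Hoxa5 differed by -1.20 (SE 0.45), with 1 hair loss array in the range of normal skin. Hoxc6 differed by -0.51 (SE 0.17) and Hoxa3, an anterior gene, by -0.65 (SE 0.21). Neither overlapped. Differences were small for the HoxB genes Hoxb3, Hoxb4 and Hoxb5, at 0.32, 0.10 and 0.06. The other Hoxb3 probe was at -0.38.

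Hoxd10 was the exception among posterior genes. It stood at -0.20 on the Mutant097 S array and between -3.46 and -2.82 on the other 5 mutant arrays, so 1 array set its difference of 1.38 (SE 0.72). Without that array the difference was -0.16. The noncoding RNAs were lower in hair loss. Hoxa11os stood at -3.67 and -4.28 (not well above background), against -2.06, -2.02, -3.60 and -3.26 in normal skin, at least 2.08-fold lower (fitted difference -1.24, SE 0.48). Hoxd3os1, an antisense RNA of the HoxD cluster, stood at -5.06 (not well above background) and -3.32 in hair loss, against -1.63, -2.93, -3.38 and -2.80, a difference of -1.50 (SE 0.58).

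Of the other position genes, Tbx15 stood at 1.27 and 1.12 in hair loss, just below the lowest normal skin array at 1.28, with a difference of -0.34 (SE 0.20). Pitx1 stood at -2.94 and -4.79 in hair loss and at -2.10, -3.33, -2.46 and -2.30 in normal skin, a difference of -1.32 (SE 0.56; limma, adjusted p = 0.956). The groups overlapped. Zic1, Tbx4 and Tbx5 split normal skin by letter, so their difference from hair loss depends on the letter (above). With the letters pooled it was 3.10 (SE 2.67), -1.67 (SE 0.95) and -1.61 (SE 1.57). Tbx18 differed by -0.48 (SE 0.50).

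In this comparison 0 of 39 member probes were called, as were 0% of 30409 probes. At an unadjusted p under 0.05 there were 12, all lower, which is 30.8% against 5.19% of all probes. Both hair loss arrays lay below all 4 normal skin arrays for 7 member probes (17.9%, against 6.63%) and above them for 0 (against 5.76%). By gene, 31 of 36 were lower, with a median of -0.55, while the median of all probes was -0.004 and 50.7% of them were lower. The median was -1.11 for the 7 posterior, -0.50 for the 15 central and -0.39 for the 6 anterior genes. These counts and medians include members that passed the filter only through normal skin, Hoxa10 and Hoxc10 among them. For those members the filter favoured a lower value in hair loss. Skeletal muscle markers were lower in hair loss as well. All 10 were lower, 7 at an unadjusted p under 0.05, and their mean per array was 3.03 and 4.17 in hair loss, 4.35 to 6.05 in mutant normal skin and 5.74 to 6.06 in wild type. Whether this bears on the Hox values was not tested. The dermal fibroblast markers had means of 4.96 and 5.03 in hair loss, inside the 4.60 to 5.53 of mutant normal skin. Fewer cells of a type and less RNA per cell cannot be told apart in total skin RNA.

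**Figure D3:**
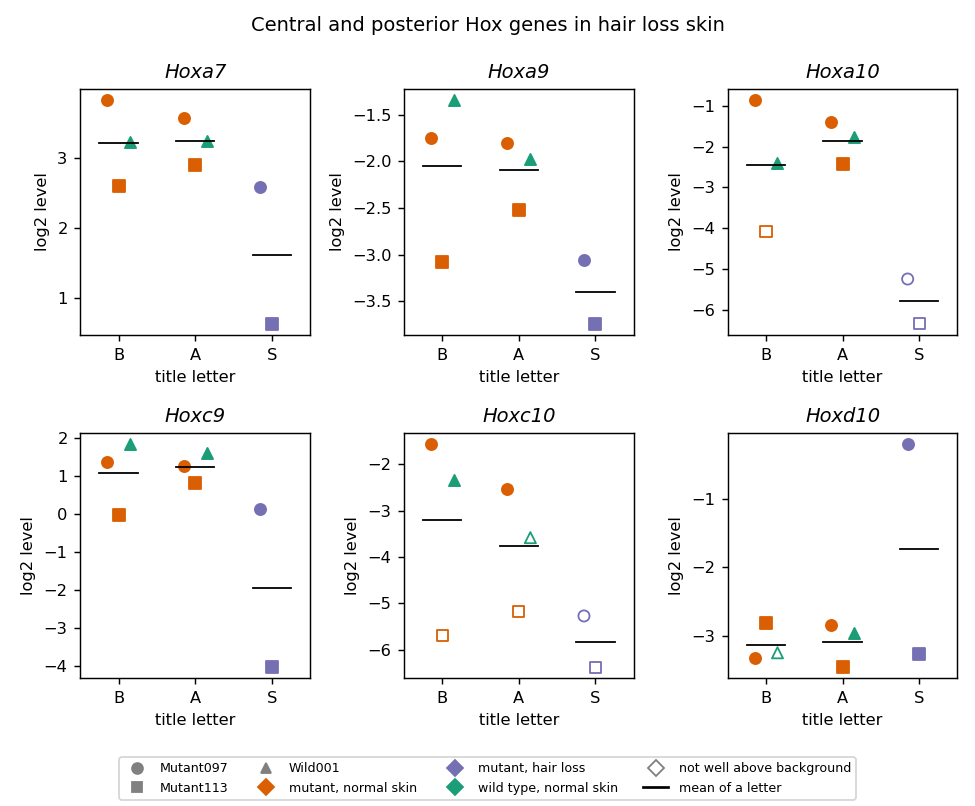
Log2 level of 6 central and posterior Hox genes by title letter (B and A normal skin, S hair loss), 1 point per array, with shape for the title number, colour for the group, open points for values not well above background and a line at the mean of each letter. Hoxa10 is lowest and at background on both S arrays, and Hoxd10 is high on the Mutant097 S array only.

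The hair loss difference of single members varied between the 2 mutant numbers. In Mutant097, hair loss minus the mean of its A and B arrays was -2.29 for Hoxd4, -1.49 for Hoxd8, -1.48 for Hoxa2 and 2.89 for Hoxd10. The same differences in Mutant113 were 0.32, -0.31, 0.46 and -0.13. Conversely, Mutant113 had -4.42 for Hoxc9 where Mutant097 had -1.19, -2.11 for Hoxa7 against -1.11, and -1.28 for Hoxc8 against 0.48. Hoxa10 was below normal skin in both, with -4.11 for Mutant097 and -3.09 for Mutant113. In Mutant113 neither the S nor the B array was well above background, so the size of that difference is uncertain. Hoxa2, Hoxd4, Hoxd8 and Hoxd10 thus had the larger differences in Mutant097, and Hoxa7, Hoxc8 and Hoxc9 in Mutant113.

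The difference between the numbers (Mutant113 minus Mutant097) was computed in limma with 1 hair loss array per number. The spread in this model came only from the A and B arrays of normal skin (3 residual degrees of freedom), so the hair loss arrays are assumed to vary like normal skin, and the SEs and p-values do not cover their own spread. The lowest values were -3.23 for Hoxc9 (SE 0.53; limma, adjusted p = 0.141), -3.02 for Hoxd10 (SE 0.52; limma, adjusted p = 0.161), -2.50 for Tbx4, -2.18 for Pitx1 and -1.76 for Hoxc8. The highest were 3.06 for Zic1, whose A and B arrays lie far apart (SE 6.16), 2.61 for Hoxd4 (SE 0.70; limma, adjusted p = 0.363), 2.54 for Hoxd3os1, 2.29 for Hoxc10 and 1.94 for Hoxa2 (SE 0.38; limma, adjusted p = 0.224). Tbx15, Tbx18 and Tbx5 differed by -0.19, 0.76 and 0.68. No member was called (0% of all probes were), and 11 member probes, 5 lower and 6 higher, had an unadjusted p under 0.05, which is 28.2% against 9.49% of all probes. All 6 anterior genes were higher, with a median of 0.98, whereas the median of the 15 central genes was -0.33 and that of all probes 0.04. Skeletal muscle markers differed between the numbers in the same model, 9 of 10 lower with a median of -2.36, and dermal fibroblast markers were higher for 8 of 8 with a median of 0.68. Their part was not tested.

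**Figure D4:**
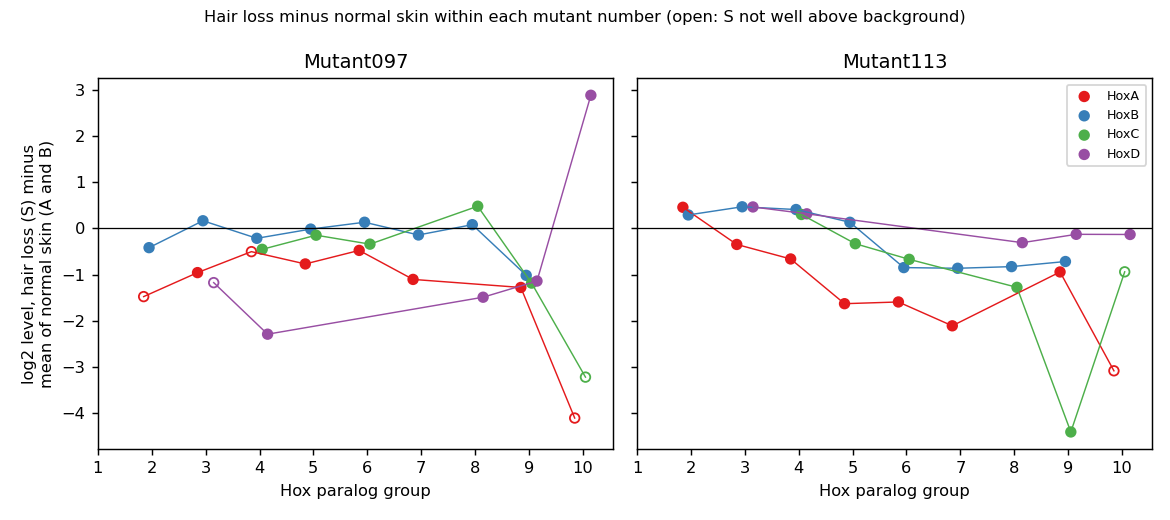
Hair loss (S) minus the mean of normal skin (A and B) on the log2 scale for the tested Hox genes reported by name, by paralog group, in Mutant097 and Mutant113, coloured by cluster, with open points where the S array was not well above background. HoxB values stay near 0 up to Hoxb5 in both, Hoxa10 is at -4.11 and -3.09, and Hoxd10 is at 2.89 in Mutant097 but -0.13 in Mutant113.

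Mutant113 had lower values than Mutant097 for most central and posterior members. Over all letters, Hoxb5 stood at -0.19, -0.74 and -0.48 in Mutant097 (B, A and S) and at -1.15, -1.44 and -1.16 in Mutant113. The numbers did not overlap, and the difference was -0.78 (SE 0.17; limma, adjusted p = 0.206). Hoxb7 stood at 2.28, 1.62 and 1.81 in Mutant097, and Mutant113 had 1.42, 1.01 and 0.35, again without overlap (-0.98, SE 0.22; limma, adjusted p = 0.224). Hoxc10 was well above background on the A and B arrays of Mutant097 and on no array of Mutant113 (fitted difference -2.63, SE 0.58). Hoxa7 differed by -1.29 (SE 0.26), Hoxb8 by -1.57 (SE 0.41), Hoxb9 by -1.79 (SE 0.49), Hoxc9 by -1.99 (SE 0.69) and Hoxd10 by -1.06 (SE 0.65). On the other side Hoxa4 was at 0.50 (SE 0.38), and Hoxd3os1, Hoxc4, Hoxd9 and Hoxa2 were at 0.02 to 0.04. Among the other position genes the differences were -0.60 for Zic1, -0.39 for Pitx1, -0.26 for Tbx18, -0.01 for Tbx15, 0.53 for Tbx4 and 0.63 for Tbx5.

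Here 0 of 39 member probes were called, against 0.0954% of all probes. At an unadjusted p under 0.05 there were 14, all lower (35.9%), against 12.8% of all probes. Mutant113 lay below Mutant097 for all 3 letters for 17 member probes (43.6%, against 24.1% of all probes) and above for 1, Hoxa4 (2.56%, against 17.4%). The gene median was -0.38, with -1.78 for posterior and -0.41 for central genes, and -0.03 over all probes. Sex and title number cannot be told apart here. Dermal fibroblast markers were lower in Mutant113 for 5 of 8 genes, 3 at an unadjusted p under 0.05, with means per array of 4.60 to 4.96 against 5.03 to 5.53 in Mutant097. Their part in the Hox values was not tested.

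Between normal skin of mutants and wild type, no member passed the threshold. Of all probes, 53.8% were lower in the mutants. All 7 posterior genes tested had a lower mean there, 0 of them at an unadjusted p under 0.05. Their median was -0.63, against -0.10 over the 36 member genes and -0.04 over all probes, and they reached up to -0.009 for Hoxd10. The title numbers could differ in direction. Hoxa10 stood at -0.87 and -1.39 in Mutant097 (B and A), above the -2.40 and -1.78 of wild type, and at -4.07 and -2.43 in Mutant113. Hoxc9 stood at 1.37, 1.25, -0.02 and 0.81 in mutant normal skin and at 1.84 and 1.61 in wild type (B and A), without overlap, a difference of -0.87 (SE 0.99; limma, adjusted p = 0.682). Hoxd9 differed by -0.45 (SE 0.25) and Hoxc8, a central gene, by -0.57 (SE 0.43), also without overlap. For this comparison the share of all probes without overlap was not computed. Other lower values, all with overlapping groups, were -1.35 for Zic1 (SE 2.67), -1.18 for Hoxb9 (SE 1.07), -0.95 for Hoxd3 (SE 0.52) and -0.66 for Hoxb8 (SE 1.03). Tbx5, Pitx1, Tbx4 and Tbx15 were at -1.06, -0.56, -0.27 and -0.25.

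The largest higher value in mutant normal skin was that of Hoxb3. It stood at -1.30, -1.53, -1.85 and -1.75 in mutant normal skin and at -2.86 and -2.08 in wild type, without overlap, a difference of 0.86 (SE 0.26; limma, adjusted p = 0.175). Its other probe stood at -1.62 to -2.12 in the mutants and at -1.03 and -2.08 in wild type, a difference of -0.38, so the probes disagree. Tbx18, Hoxb7, Hoxa11os and Hoxc5 were higher by 0.64, 0.53, 0.42 and 0.36, with overlapping groups. Of 39 member probes 0 were called, against 0.687% of all probes, and 1 had an unadjusted p under 0.05 (2.56%, against 17.2%). Dermal fibroblast markers were lower in mutant normal skin for 7 of 8 genes, 4 at an unadjusted p under 0.05, with a median of -0.83 and means per array of 4.60 to 5.53 against 5.72 and 5.98 in wild type. Of these Dpt, a matrix protein gene, fell by 1.63 (SE 0.25; limma, adjusted p = 0.0396). Hair shaft markers had means per array of -3.76 and -2.89 in wild type and 3.38 to 6.04 in mutant normal skin, and 6 of 8 were called higher there. Their part in the member values was not tested.

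Hair loss skin of the mutants was also set against wild type skin, where the largest differences were in Hoxa10 and Hoxc9. Both comparisons use the same hair loss arrays. Hoxa10 stood at -2.40 and -1.78 in wild type and was at least 3.42-fold lower in hair loss (fitted difference -3.70, SE 0.95; limma, adjusted p = 0.0853). Hoxa9 stood at -1.35 and -1.97 in wild type (difference -1.74, SE 0.49; limma, adjusted p = 0.0977), and Hoxc9 at 1.84 and 1.61 (difference -3.67, SE 1.14; limma, adjusted p = 0.115). Hoxd9 differed by -1.08 (SE 0.29; limma, adjusted p = 0.0896). All 4 had groups without overlap. Hoxb9, Hoxd3os1, Pitx1 and Tbx15 also lay below wild type without overlap. Their differences were -2.05 (SE 1.23), -2.05 (SE 0.67), -1.88 (SE 0.65) and -0.60 (SE 0.23). Each side held only 2 arrays, and the share of all probes that separate this way was not computed. Tbx5 differed by -2.67 (SE 1.82) and Tbx4 by -1.93. Neither was well above background on the hair loss arrays or the wild type B array, so their order there is not known. The main Hoxb3 probe was higher in hair loss, with a difference of 1.18 (SE 0.30; limma, adjusted p = 0.0841). Its other probe differed by -0.76 (SE 0.40), so the probes disagree here too. Zic1 at 1.75 (SE 3.09), Hoxd10 at 1.37 (SE 0.83), Hoxb5 at 0.23, Hoxb4 at 0.21 and Tbx18 at 0.16 had overlapping groups.

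Of the 39 member probes 0 were called against wild type, against 1.41% of all probes. At an unadjusted p under 0.05 there were 13, 12 lower and 1 higher (33.3%), against 24.8% of all probes. The posterior median was -2.05, the central -0.89 and that of all probes -0.06. Here too, members that passed the filter only through normal skin, such as Hoxa10, are included. Calls depended on single choices. Hoxa10 passed the threshold without the Mutant113 B array (limma, adjusted p = 0.0304) and with only the 2 groups in the fit (limma, adjusted p = 0.0239), and Hoxd10 without the Mutant113 hair loss array (2.91; limma, adjusted p = 0.0260). With the slide row as a block, 4 members were called, Hoxa9, Hoxa10, Hoxa11os and Hoxc10. Both hair loss arrays were in slide row 1 and both wild type arrays in row 2, so this value runs only through mutant normal skin, where row 1 held Mutant097 and row 2 held Mutant113. Group, row and title number cannot be told apart there. Dermal fibroblast markers were lower in hair loss than in wild type for 7 of 8 genes, 1 of them called, and skeletal muscle markers for 10 of 10, 1 of them called. Their part was not tested.

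Transcripts of the proteins that work with Hox factors were read on the same arrays. Pbx and Meis family proteins bind DNA together with Hox proteins. Of 9 cofactor genes, all 9 were tested and 8 were well above background on all arrays, and 0 were called in any comparison. Pknox2 was lower in hair loss, at -1.77 and -1.70 against -0.86 to 0.28 in mutant normal skin, a difference of -1.40 (SE 0.32; limma, adjusted p = 0.713). Meis3 stood at 4.70 and 3.24 in wild type and at 2.31, 2.50, -0.001 and 0.16 in mutant normal skin (B and A of Mutant097, then of Mutant113), a difference of -2.73 (SE 0.86; limma, adjusted p = 0.188). The mutant values split by title number.

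Polycomb and Trithorax proteins keep Hox genes silent or active. Of 19 such regulators 17 were tested, and 0 were called in any comparison. In hair loss against mutant normal skin 6 were lower and 11 higher, 0 of them at an unadjusted p under 0.05, with a median of 0.10. Against wild type, Ezh2, the Polycomb methyltransferase, differed by 0.96 (SE 0.33) and Kdm6a, a demethylase of the same mark encoded on the X chromosome, by 0.82 (SE 0.35) in mutant normal skin. Kdm6a stood at 0.50 to 0.53 in Mutant113 and at or below -0.08 on all other arrays, so it split by title number as Xist did.

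Of 40 other patterning factors, 23 were tested and 13 were well above background on no array. Tbx3, Zic4 and Hand2 had A and B values without overlap, although some values of Zic4 and Hand2 are only bounds. The share of all probes that separate A and B this way was not computed. Tbx3, a limb and ventral trunk T-box factor, stood at 1.83, 2.41 and 1.93 on the A arrays of Mutant097, Mutant113 and Wild001, at 0.21, 0.47 and 0.17 on the B arrays, and at -0.13 and -0.48 on the S arrays. It was well above background on all 8 arrays, with A minus B at 1.77 (SE 0.16; limma, adjusted p = 0.548) and S minus A at -2.42 (SE 0.26; limma, adjusted p = 0.390). Zic4, the genomic neighbour of Zic1, stood at -2.87, -3.36 and -3.63 on B and at -5.35, -6.02 and -5.71 on A, a difference of -2.41 (SE 0.19; limma, adjusted p = 0.346). Its A values and its Wild001 B value lay below every probe well above background on those arrays. They are only bounds, so the order in Wild001 is not known and the size of the difference is uncertain. Hand2, a limb bud factor, differed by 2.30 (SE 0.25; limma, adjusted p = 0.642) and was well above background on the A arrays of Mutant097 and Wild001 only. In A minus B, 5 of the 23 were lower and 2 higher at an unadjusted p under 0.05, and 0 were called.

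In hair loss against mutant normal skin, Tbx3 differed by -1.53 (SE 0.71), and 0 of the 23 were called. Against wild type 1 was called. Msx2, a factor of the hair matrix, rose to 3.41 and 1.95 in hair loss from -0.58 and -0.74 in wild type, by 3.34 (SE 0.57; limma, adjusted p = 0.0400). The hair shaft markers were higher in hair loss for 8 of 8 genes, 7 of them called, and their part was not tested.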

How the data were processed

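The values came from 8 skin RNA samples, 1 single-colour array each. Per the file headers, the intensity of each spot had been corrected for background by Agilent Feature Extraction 11.5.1.1, which the submitters' processing notes also name. The deposited matrix holds log2 values. They equal the log2 processed intensity after 1 shift per array, and lay within 0.005 of the values computed here. Outlier spots (118 to 210 per array) and 78 probes with no spot left were dropped, which left 55603 probes, spots of a probe were averaged, and each array was set to its 75th percentile. Symbols came from RefSeq accessions, so 26546 probes had 1 symbol. Chromosome positions of probes are not given, because the array design names another mouse assembly (mm9) than the RefSeq table.

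Probes well above background on at least 2 of 8 arrays were tested with limma 3.58.1 in R 4.3.3, two-sided, with Benjamini-Hochberg adjustment over all 30409 probes tested, separately per comparison. Calls were made at an adjusted p under 0.05. Groups were compared in 1 model of 3 groups, A minus B in the 6 normal skin arrays with the title number as a block, and the other letter and number differences in a model of number plus letter. The hair loss difference between numbers came from a model of each combination of group and number. The script was tested on simulated data. "At least" folds use, per array, the lowest probe well above background or the probe itself if higher. Precision is limited by the small number of arrays, 2 to 4 in a group. Genes were named when called, otherwise up to the 5 largest differences each way, taking for each gene its brightest probe by mean, if well above background on the higher side. Zic1, Tbx15, Tbx18, En1, Tbx5, Tbx4, Pitx1 and the 2 largest differences each way of each related list were also named, and further members by their unadjusted p or their place in a cluster after their values were seen. A few genes that count in the totals are not reported here by name. Members, lists and tests were chosen with earlier results of these data known. The labels give no shared animal for a title number. Hair loss arrays had deviations from their group mean that correlated with those of normal skin arrays of the same number at 0.02 to 0.21. With 2 hair loss arrays these deviations mirror each other. The values for the other number, -0.21 to -0.02, are therefore fixed by the first and add nothing. Alternatives covered background correction, normalization, filters, slide row, the deposited matrix, the title number and leaving out arrays. Python 3.11.15, pandas 2.3.3 and matplotlib 3.10.9 made the tables and plots.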

Additional observations from a re-analysis of the deposited data

Results flagged for a closer look

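Hoxd8 was high on 1 of the 4 arrays of mutant normal skin, that of Mutant097 B, at 1.61 against 0.20, 0.20 and -0.01. The gap to the next array was 0.867 of the whole range. Chance gives such a gap in about 1 in 20 groups, and 36 genes were examined.

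For 6 of the Hox genes reported by name, hair loss lay on opposite sides of normal skin in the 2 mutant numbers. The share of all probes with this pattern was not computed, so it is not known whether 6 is unusual. The hair loss difference in Mutant113 exceeded that in Mutant097 by 1.94 for Hoxa2, 0.71 for Hoxb2, 0.62 for Hoxb4, 0.76 for Hoxc4 and 2.61 for Hoxd4. For Hoxc8 it was -1.76. In limma no gene passed the threshold, with the 1 hair loss array of each number assumed to vary like normal skin.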

How the results depend on the processing

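The count of called members stayed at 0 in 6 of the 8 comparisons under each alternative that was run, among them the title number as a replicate block for hair loss against mutant normal skin (0 called). The slide row block gave 4 and the fit of only the 2 groups gave 1 in hair loss against wild type, and normexp on the median signal, chosen after seeing the data, gave 3 in A minus B. Leaving out 1 array gave 0 to 1 in both. The planned normexp on the mean signal was not run, because the files used here hold no mean spot signal. Quantile normalization moved the median of all probes in the hair loss difference between numbers from 0.04 to 0.11.

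Some small or single-array differences changed sign. Leaving out 1 array gave, for hair loss minus mutant normal skin, -0.16 to 2.92 for Hoxd10, -0.029 to 0.23 for Hoxb4 and -0.28 to 0.40 for Hoxb5. For mutant normal skin minus wild type it gave -0.36 to 1.63 for Tbx18, -4.36 to 1.66 for Zic1 and -1.66 to 0.34 for Hoxb8. For hair loss minus wild type it gave -1.25 to 4.76 for Zic1, -0.17 to 2.91 for Hoxd10 and -0.13 to 0.60 for Hoxb5. For A minus B it gave -0.066 to 0.44 for Hoxb3 and -0.16 to 0.28 for Tbx15. S minus A ran from -0.15 to 2.87 for Hoxd10, -0.025 to 1.26 for Hoxb8 and -2.07 to 0.11 for Pitx1. S minus B ran from -0.11 to 2.91 for Hoxd10, -0.15 to 0.48 for Hoxb4, -0.24 to 0.52 for Hoxc4, -0.44 to 0.47 for Tbx18, -1.87 to 0.63 for Tbx4, -0.11 to 0.69 for Tbx5 and -1.82 to 1.24 for Zic1. Mutant113 minus Mutant097 ran from -0.81 to 0.76 for Hoxd3os1, -0.21 to 0.17 for Hoxc4, -0.31 to 0.29 for Hoxd9 and -0.63 to 0.37 for Hoxa2, and the hair loss difference between numbers from -0.75 to 6.86 for Zic1. With the slide row as a block, hair loss minus mutant normal skin was -0.086 for Hoxb4 and -0.36 for Hoxb5, hair loss minus wild type -0.16 and -0.60, and mutant normal skin minus wild type -0.27 for Hoxa11os. With normexp, mutant normal skin minus wild type was -0.16 for Tbx18, -0.060 for Hoxa11os and -0.0083 for Hoxc5, A minus B -0.067 for Hoxb3, S minus B -0.035 for Tbx5, and Mutant113 minus Mutant097 -0.18 for Hoxa4, -0.31 for Hoxd3os1, -0.094 for Hoxd9 and -0.21 for Hoxa2. Quantile normalization gave -0.0091, -0.0020 and -0.029 for the latter 3, and 0.041 for Tbx18 in S minus B. The cause was not tested.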
